A study of Mus musculus with 70 samples.

Results

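The 39 Hox genes of the 4 mouse clusters and the limb identity factors Tbx4, Tbx5 and Pitx1 were followed in bone RNA of the femur and the ulna, intact and after fracture. Members were chosen by name, as gene symbols of the form Hox, a cluster letter from a to d and a number, plus the 3 limb factors. They numbered 42 of the 45634 gene names shared by the tables of both bones, with 11 HoxA, 10 HoxB, 9 HoxC and 9 HoxD genes. Their measured values played no part in the choice.

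The mice were 12-week-old C57BL/6 females, with no transgene or other allele named in the labels. The injured groups were femurs with a full fracture, taken at 4 h and at 1 d, 3 d, 7 d and 14 d (5 libraries each), and ulnas with a stress fracture, an incomplete crack of the bone. Ulnas numbered 5 libraries at 4 h, 3 d and 5 d and 4 at 1 d and 7 d, numbered 1, 2, 4 and 5. The left limbs of injured animals served as controls and gave 10 intact femurs and 9 intact ulnas, so no group came from mice without an injury. Periosteum, the outer sheath of bone, is named in the labels, but the protocol speaks of bone sections cleared of soft tissue. A 7 mm femur section had its marrow spun out, whereas no such step is named for the 5 mm ulna section. Libraries held from 8.12 to 30.8 M reads assigned to genes, with a median of 16.4 M. Osteoblast markers, the genes of bone-forming cells, were above 0 in every library for 7 of 7 genes. Skeletal muscle markers were also above 0 in every library for 7 of 7 genes, with summed levels from 1341 to 29643 scaled RPKM, so the sections held muscle RNA as well. In bulk RNA, fewer cells of a type and less RNA per cell cannot be told apart.

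Hox genes encode homeodomain transcription factors that are arranged in clusters in the order in which they are used along the body. Low-numbered (3' end) genes act toward the head, high-numbered (5' end) genes toward the tail and, within the HoxA and HoxD clusters, toward the tip of the limb. Adult bone-forming and connective tissue cells keep a Hox pattern that reflects their position of origin. Tbx5 starts the forelimb bud, Tbx4 acts in the hindlimb bud, and Pitx1 is the homeodomain factor that gives the hindlimb its identity. The HoxC genes of the 5' end are used in the hindlimb bud and not in the forelimb bud. The femur is a hindlimb bone of the upper limb segment, and the ulna a forelimb bone of the forearm. Limb and limb segment thus differ together here and cannot be told apart.

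Promoters were shown for some members whose levels carry the results. They are Hoxd8, Hoxd9 and Hoxd10 of the HoxD genes that changed in the ulna, and Hoxa11 of the forearm-level group. The last is Hoxc4, the HoxC member called here for which a promoter was in the reference table. Hoxd11 also changed in the ulna and had a promoter, which is not shown. Each promoter shown covers 250 bases before to 50 bases after a RefSeq start on GRCm38.p6, written 5' to 3' on the strand of the gene. Capitals mark a T-box match, and the other letters are lower case.
Hoxd8 (chr2:74704365-74704664, plus strand): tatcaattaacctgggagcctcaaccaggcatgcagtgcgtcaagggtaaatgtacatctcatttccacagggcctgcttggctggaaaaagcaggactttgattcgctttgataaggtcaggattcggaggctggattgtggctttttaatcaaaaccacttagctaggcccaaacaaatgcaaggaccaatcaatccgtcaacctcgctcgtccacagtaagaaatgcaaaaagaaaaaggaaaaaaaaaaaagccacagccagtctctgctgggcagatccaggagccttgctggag
Hoxd9 (chr2:74697513-74697812, plus strand): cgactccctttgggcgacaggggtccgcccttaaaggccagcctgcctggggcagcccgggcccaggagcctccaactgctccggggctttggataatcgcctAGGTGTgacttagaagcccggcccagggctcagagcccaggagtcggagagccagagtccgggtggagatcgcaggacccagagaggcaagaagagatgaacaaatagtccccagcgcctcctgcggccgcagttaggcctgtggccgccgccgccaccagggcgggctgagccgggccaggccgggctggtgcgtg
Hoxd10 (chr2:74691641-74691940, plus strand): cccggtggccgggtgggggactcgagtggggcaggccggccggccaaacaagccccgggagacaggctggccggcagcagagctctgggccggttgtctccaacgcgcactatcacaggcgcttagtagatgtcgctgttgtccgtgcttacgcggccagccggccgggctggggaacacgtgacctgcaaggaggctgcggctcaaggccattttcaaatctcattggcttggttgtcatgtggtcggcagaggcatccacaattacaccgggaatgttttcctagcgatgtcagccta
Hoxa11 (chr6:52245761-52246060, minus strand): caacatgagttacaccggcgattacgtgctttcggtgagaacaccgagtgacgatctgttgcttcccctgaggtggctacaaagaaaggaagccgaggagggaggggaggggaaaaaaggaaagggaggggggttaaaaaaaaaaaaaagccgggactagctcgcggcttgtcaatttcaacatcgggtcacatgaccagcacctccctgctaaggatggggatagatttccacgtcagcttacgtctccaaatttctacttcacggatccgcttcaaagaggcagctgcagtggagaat
Hoxc4 (chr15:103034145-103034444, plus strand): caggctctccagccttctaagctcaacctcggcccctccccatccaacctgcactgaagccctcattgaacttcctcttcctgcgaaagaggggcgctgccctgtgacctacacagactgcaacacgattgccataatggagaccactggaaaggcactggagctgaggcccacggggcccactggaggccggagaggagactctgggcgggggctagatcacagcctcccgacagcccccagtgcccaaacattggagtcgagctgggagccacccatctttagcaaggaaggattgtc

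GC content differed among them, with 68.3% in Hoxd9, 62.7% in Hoxd10, 60.3% in Hoxc4, 51% in Hoxa11 and 46.7% in Hoxd8, against a median of 52.7% over all promoters of the table. A promoter was matched for 23 of 42 members, as 25 promoters. Both strands were searched for 4 motifs, counting matches that overlap. The T-box motif AGGTGT stood in 3 of 25 member promoters (Hoxa10, Hoxb4 and Hoxd9) and in 13.7% of 32851 promoters, and in Hoxd9 it lay 147 bases before the start. The Pbx-Hox motif TGATNNAT stood in 4 of 25 (Hoxa2, Hoxb1, Hoxb8 and Hoxd11) and in 8.85% of all. The Meis motif TGACAG stood in 2 of 25 and in 19.2% of all, and the Pitx motif TAATCC in 0 of 25 and in 7.06% of all. Such a match describes letters in a window and shows no binding.

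Levels below are scaled RPKM, reads per kilobase of gene and per M assigned reads, scaled between libraries, so they can be compared between genes. Differences are log2 differences of scaled RPKM plus 0.1, each with its limma standard error, and p-values are limma's, adjusted over all genes tested. A call means an adjusted p under 0.05. The added 0.1 holds down differences of genes near 0. A gene was tested where at least 5 libraries of a fit reached 0.5 scaled RPKM, which 26 members did in femurs, 22 in ulnas and 32 in the fit of both bones. The 10 members below that level in both bones were Hoxb1, Hoxb5, Hoxb8, Hoxb13, Hoxc12, Hoxc13, Hoxd1, Hoxd3, Hoxd12 and Hoxd13. They are described by their levels.

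Intact femurs were set against intact ulnas to see which members separate the bones before injury. Femurs carried the HoxC cluster and Pitx1, and ulnas carried Tbx5, Hoxa13, Hoxa11, Hoxd11 and Hoxd10. Of 32 members tested, 18 were higher and 6 lower in femurs, where 39.7% of all genes were called (21.7% higher and 18% lower). The median difference was 0.41 over these members and 0.01 over all genes. Groups did not overlap for 14 members, as for 7.22% of all genes tested. Of the 32 members, 16 passed the filter in only 1 bone, among them the HoxC genes, in femurs only. Tbx5, Hoxa11, Hoxa13, Hoxd4, Hoxd10 and Hoxd11 passed it in ulnas only. Such members entered these counts through the bone where they were high. Femurs and ulnas stand in separate tables, so the bone and the library series cannot be told apart. Osteoblast markers were also higher in intact femurs (7 of 7 called), as were chondrocyte markers (7 of 10), and erythroid markers were lower (4 of 5). Summed progenitor markers were 232 to 403 in intact femurs, against 142 to 181 in intact ulnas (4 of 7 higher, 1 lower), osteoclast markers 239 to 866, against 86.3 to 136 (4 of 4 higher), and Schwann cell markers 8.21 to 22.6, against 31.6 to 79.8 (3 of 3 lower). Their part in these differences was not tested.

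Among the limb factors, Pitx1 (chromosome 13, 55825051 to 55836192 in GRCm38) was lowest at 2.41, had a median of 3.01 and was highest at 4.55 in intact femurs, against 0.262, 0.658 and 0.917 in intact ulnas. All 10 femurs were above all 9 ulnas. The difference was 2.33 ± 0.19 (adjusted p = 1.51e-15), and pooled reads put femurs 5.42-fold higher (95% interval 4.7 to 6.29, counting error only). Tbx5 (chromosome 5, 119832668 to 119885219) had the reverse pattern, with 0.0524, 0.109 and 0.253 (lowest, median, highest) in intact femurs and 0.989, 1.16 and 1.38 in intact ulnas. Its difference was -2.51 ± 0.13 (adjusted p = 7.67e-25), and reads were 9.14-fold higher in ulnas (7.43 to 11.4).

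Tbx4 (chromosome 11, 85886422 to 85916097), the hindlimb T-box gene, was present in both bones. It ran from 0.792 through a median of 1.56 to 1.76 in intact femurs and from 0.436 through 0.768 to 0.877 in intact ulnas. The groups overlapped, because intact femur library 2 had 0.792 while the other femurs had 1.22 or more. The difference of 0.93 ± 0.12 (adjusted p = 1.25e-08) was smaller than that of Pitx1.

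**Figure D1:**
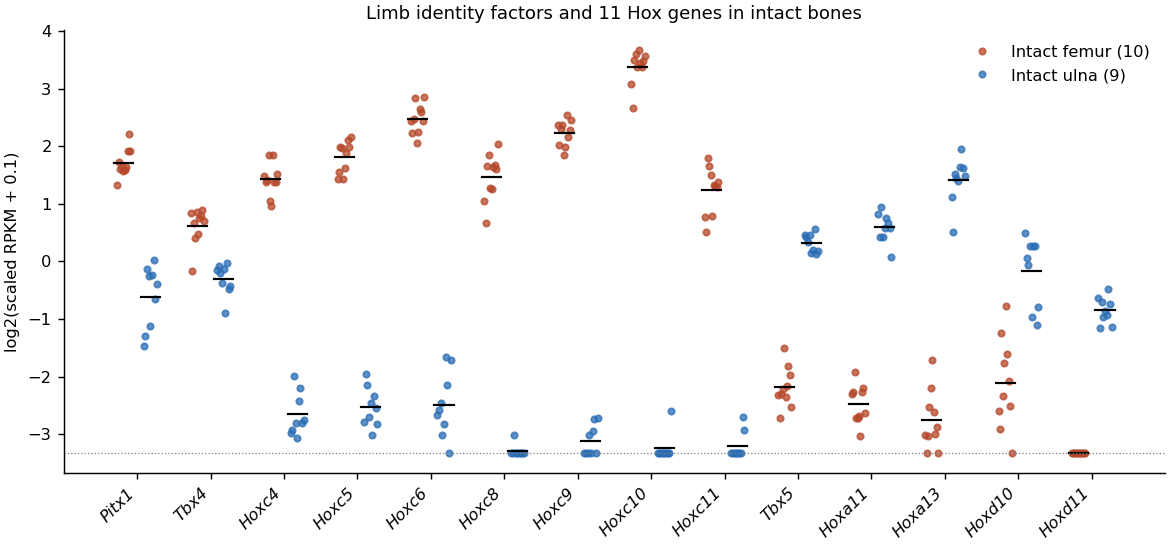
Levels of the limb factors and of the Hox members with the largest differences in intact femurs (left of each pair, n = 10) and intact ulnas (n = 9), as log2 of scaled RPKM plus 0.1, with each point 1 library, a bar at the group mean and a dotted line at 0 reads. Pitx1 and the HoxC genes lie higher in every femur than in any ulna, and Tbx5, Hoxa11, Hoxa13 and Hoxd11 lie lower.

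The HoxC cluster on chromosome 15, from 102921103 (Hoxc13) to 103036852 (Hoxc4), separated the bones by the widest margin. Of its 9 genes 7 were tested, and 7 of 7 were higher in femurs. Summed HoxC levels were 31.9 ± 4.84 in intact femurs (SD, n = 10) and 0.278 ± 0.125 in intact ulnas (SD, n = 9). The same sums were 18.8 ± 1.41 and 20 ± 2.46 for HoxA, 5.83 ± 0.642 and 3.89 ± 0.46 for HoxB, and 7.43 ± 2.68 and 9.15 ± 1.41 for HoxD.

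Hoxc10, a gene of hindlimb-level patterning, was lowest at 6.22, had a median of 10.9 and was highest at 12.6 in intact femurs, and had 0, 0 and 0.0654 in intact ulnas. That was 3465 reads in 10 femurs and 2 reads in 9 ulnas, a ratio of 1347 with a counting interval of 373 to 11124. Its difference was 6.62 ± 0.11 (adjusted p = 7.22e-50). That was number 6 among the 853 genes called higher in femurs with at least 1 scaled RPKM there and no overlap of the groups. Above it stood Rnu3a and 0610012G03Rik, which had 0 in every intact ulna. Myh7, Myl3 and Tnnc1 came next, with means of 329, 282 and 333 in femurs and 1.34, 2.11 and 2.39 in ulnas. Hoxc9, number 12, had 4.65 ± 0.708 in femurs and 0.0172 ± 0.0222 in ulnas, a difference of 5.35 ± 0.12.

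Hoxc6 had 5.56 ± 1.01 in intact femurs and 0.0912 ± 0.0769 in intact ulnas (difference 4.97 ± 0.16). Hoxc8 had 2.77 ± 0.748 in femurs and 0.00256 ± 0.00769 in ulnas, where 1 read was found in 9 libraries. Its difference was 4.76 ± 0.12. These genes pattern the trunk and the proximal limb. Hoxc11 (difference 4.44 ± 0.16), Hoxc5 (4.34 ± 0.15) and Hoxc4 (4.08 ± 0.16) were between 2.34 and 3.48 on average in femurs and under 0.08 in ulnas. Hoxc5 shares 166 nt of exon with Hoxc10, which makes part of its value uncertain. Hoxc12 and Hoxc13, the genes at the 5' end of the cluster, had 0.0057 and 0.031 on average in femurs.

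**Figure D2:**
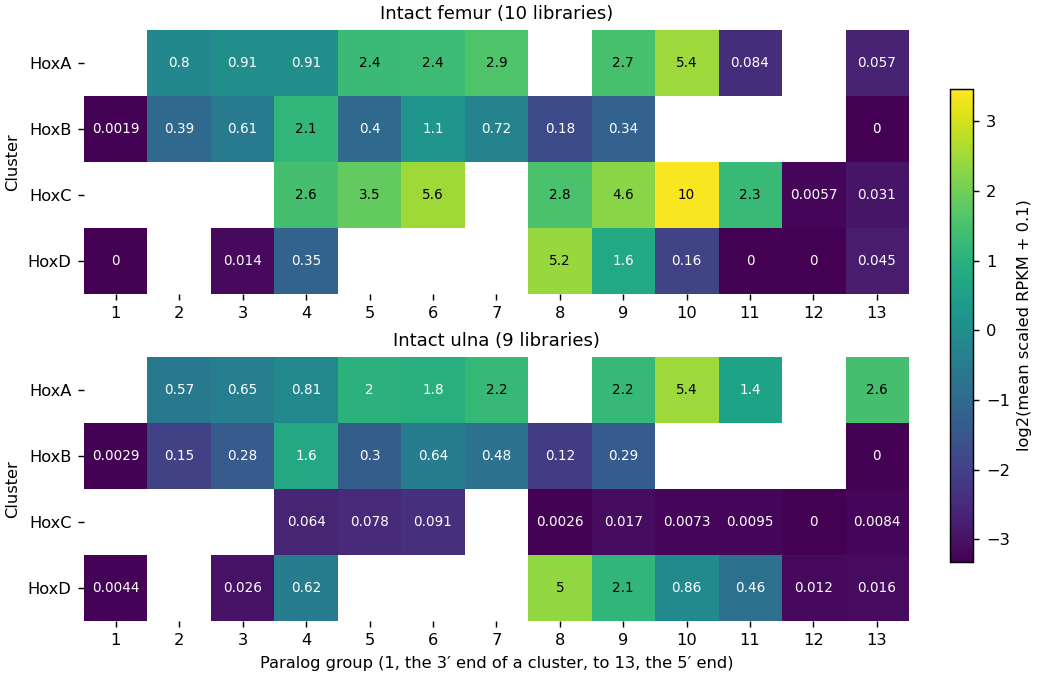
Mean level of Hox members in intact femurs (upper panel, n = 10) and intact ulnas (lower panel, n = 9), by cluster and paralog group, with scaled RPKM printed in each cell and its log2 (after adding 0.1) as colour. The HoxC row reaches 10.5 in femurs and stays under 0.1 in ulnas, and Hoxa10 and Hoxd8 are high in both bones.

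Lower in femurs were Hoxa13, Hoxa11, Hoxd11, Hoxd10 and Hoxd4. Hoxa13, the gene of wrist and hand level, had 0, 0.0309 and 0.205 (lowest, median, highest) in intact femurs and 1.32, 2.7 and 3.77 in intact ulnas. Its difference was -4.17 ± 0.18 (adjusted p = 4.15e-28), with 47.5-fold more reads in ulnas (31.7 to 74.6). That was number 3 among the 576 genes called lower in femurs with at least 1 scaled RPKM in ulnas and no overlap of the groups. It came after Il4i1 and Gm27991, and Gm27991 had 0 in every intact femur. Hoxa11, a gene of the forearm and lower leg level, had 0.0228, 0.0817 and 0.164 in femurs and 0.956, 1.4 and 1.83 in ulnas (difference -3.06 ± 0.18, adjusted p = 3.04e-21). For both genes every femur was below every ulna. Hoxa11 shares 35.0% of its exon bases with the antisense gene Hoxa11os. The sources used here do not say whether reads were counted by strand, so the reads of both genes may be mixed.

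Hoxd11, the HoxD partner of Hoxa11 in forearm patterning, had no read in 10 intact femurs and 263 reads in 9 intact ulnas (0.463 ± 0.0896). Against a floor of 3 reads over the femur group, it was at least 113-fold higher in ulnas. Hoxd10 had 0.164 ± 0.15 in femurs and 0.854 ± 0.349 in ulnas (difference -1.94 ± 0.26), and these groups overlapped. Hoxd4 had 0.348 ± 0.131 and 0.623 ± 0.201 (difference -0.70 ± 0.19). Its exons overlap Gm28230 over 39.1% of their length. At the 5' end of HoxD, Hoxd13 had 19 reads in femurs and 5 reads in ulnas (ratio 2.95, 1.07 to 10.1), named here after its values were seen.

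The other HoxA genes were closer between the bones. Hoxa10, a gene of the upper limb segment, averaged 5.38 ± 0.696 in intact femurs and 5.42 ± 0.854 in intact ulnas (adjusted p = 0.986). Hoxa9, Hoxa7, Hoxa3 and Hoxa2 were called higher in femurs by 0.25 to 0.43, and 4 HoxB genes by 0.36 to 0.98, with Hoxb2 (0.98 ± 0.16) and Hoxb3 (0.91 ± 0.14) as the widest. Hoxb3 shares 52.9% and Hoxb2 27.3% of its exon bases with the antisense Hoxb3os. With RPKM as deposited, which moved the median of all genes to -0.20, the calls were 11 higher and 7 lower. Hoxa2, Hoxa3, Hoxa7, Hoxa9, Hoxb4 and Hoxb6 were among those no longer called, and Hoxd9 was called lower. Hoxd8 (5.21 ± 1.87 in femurs, 5.03 ± 0.665 in ulnas, adjusted p = 0.925) and Hoxd9 (1.65 ± 0.684 and 2.12 ± 0.607, adjusted p = 0.224) did not pass the test.

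Injured bones at the shared times were compared the same way. At 4 h, 8 of 32 members were higher and 14 lower in fractured femurs than in stressed ulnas, where 41.7% of all genes were called (21.8% higher and 19.8% lower). At 1 d, 10 members were higher and 9 lower, where 37.5% of all genes were called (19.8% higher and 17.7% lower). At 3 d the counts were 15 and 10 (42.4% of all genes, 21.3% higher and 21.1% lower) and at 7 d 14 and 8 (60.4%, 29.4% higher and 31% lower). At 7 d, RPKM as deposited moved the median of all genes to -0.41 and gave 12 and 13, with Hoxb3 and Hoxb4 no longer called and Hoxa3, Hoxa5, Hoxa6, Hoxa9 and Hoxa10 called lower. Calls ended on leaving out 1 library for Hoxa2 (7 of 10 libraries) and Hoxa5 (ulna library 5) at 4 h, for Hoxa9 at 1 d (6 of 9 libraries) and 3 d (3 of 10) and for Hoxb2 and Hoxd8 at 1 d (2 of 9 each). With only the groups of each comparison in the fit, 14, 10 and 13 members were called at 4 h, 1 d and 7 d. Over the 5 comparisons of the bones, 8 members were higher in femurs each time, namely Pitx1, Hoxc4, Hoxc5, Hoxc6, Hoxc8, Hoxc9, Hoxc10 and Hoxc11. Another 6 were lower in femurs each time, namely Tbx5, Hoxa11, Hoxa13, Hoxd4, Hoxd10 and Hoxd11. Only Pitx1 among all of these passed the filter in each bone. The HoxC genes passed it in femurs only and the 6 lower members in ulnas only. They were thus admitted by the bone where they were high, a limit that the counts over 32 members share. Hoxa2, Hoxa3, Hoxa7 and Hoxa9 were called in both directions over the comparisons.

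The size of the bone difference moved for some of them. For Pitx1 it was 1.34 ± 0.26 at 4 h, 2.59 ± 0.28 at 1 d, 3.59 ± 0.26 at 3 d and 3.67 ± 0.28 at 7 d. For Hoxa11 it was -2.68, -2.81, -2.96 and -3.72 at these times, and for Hoxd10 it was -1.25, -2.24, -3.16 and -3.35. For Tbx5 it stayed between -2.88 and -2.32. Tbx4 was called only at 3 d among the injured bones (0.53 ± 0.17, adjusted p = 0.00994), with -0.32 at 4 h (adjusted p = 0.129), 0.18 at 1 d (adjusted p = 0.462) and 0.12 at 7 d (adjusted p = 0.599).

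Hoxd8 and Hoxd9, which did not pass the test between intact bones, were lower in fractured femurs than in stressed ulnas at 3 d, by -1.40 ± 0.25 and -2.34 ± 0.36. At 7 d the differences were -1.01 ± 0.27 and -2.81 ± 0.38. At 1 d Hoxd8 was called at -0.80 ± 0.27 (adjusted p = 0.0151), a call that ended without femur library 1 or ulna library 2. Hoxb7, a trunk-level gene, was higher in femurs at 3 d (1.13 ± 0.31) and 7 d (1.49 ± 0.33).

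**Figure D3:**
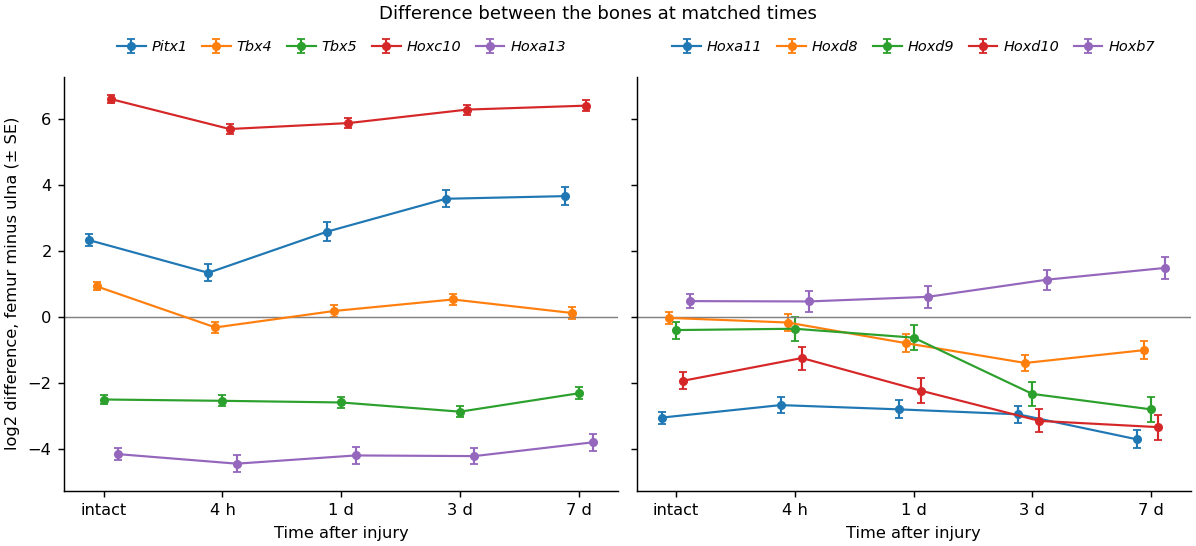
Log2 difference of femur minus ulna, with standard errors as bars, for Pitx1, Tbx4, Tbx5, Hoxc10 and Hoxa13 (left panel) and Hoxa11, Hoxd8, Hoxd9, Hoxd10 and Hoxb7 (right panel) in intact bones and at 4 h, 1 d, 3 d and 7 d. Hoxc10 and Pitx1 stay above 0, Tbx5, Hoxa11 and Hoxa13 stay below 0, and Hoxd8 and Hoxd9 reach -1.40 and -2.34 at 3 d.

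Each time after full fracture was set against the same 10 intact femurs, so these comparisons share their controls. The earliest time was marked by lower levels of HoxA, HoxB and HoxC genes. At 4 h, 0 of 26 tested members were higher and 22 lower, where 56.4% of all genes were called (27.4% higher and 29% lower). The median difference was -1.06 over these members and -0.05 over all genes. Groups did not overlap for 18 members, as for 21.7% of all genes tested. By cluster, 8 of 9 HoxA, 5 of 6 HoxB and 7 of 7 HoxC members fell, together with Tbx4 and Pitx1, while neither HoxD member tested was called.

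Hoxc5 had 0.993, 0.74, 0.471, 1.14 and 0.98 in the 5 femurs at 4 h, against 2.59, 3.71 and 4.35 (lowest, median, highest) in intact femurs. All 5 lay below every intact femur, with a difference of -1.92 ± 0.15 (adjusted p = 2.86e-12). Hoxc6 had 1.41, 1.46, 0.937, 1.85 and 1.89, against 4.07, 5.39 and 7.11 in intact femurs (difference -1.83 ± 0.13, adjusted p = 1.51e-13). Hoxc10 had 2.91, 6.15, 3.78, 6.23 and 8.48 at 4 h and overlapped the intact range, with a difference of -0.98 ± 0.15.

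Tbx4 at 4 h had 0.317, 0.381, 0.295, 0.328 and 0.422, below the lowest intact femur at 0.792 (difference -1.79 ± 0.15, adjusted p = 1.2e-11). Pitx1 had 1.5, 1.64, 1.28, 1.92 and 1.98, below the lowest intact femur at 2.41 (difference -0.91 ± 0.12, adjusted p = 7.35e-08). The fall of Tbx4 was thus larger than that of Pitx1 on the log2 scale, and that gap was not tested. Among HoxA genes Hoxa7 (-1.61 ± 0.14), Hoxa6 (-1.59 ± 0.20), Hoxa10 (-1.35 ± 0.11) and Hoxa9 (-1.31 ± 0.08) fell. Among HoxB genes Hoxb6 fell by 1.65 on the log2 scale.

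Hoxd9 and Hoxd8 spread widely at 4 h. Hoxd9 had 0.116, 1.39, 1.24, 1.87 and 2.01 (difference -0.53 ± 0.38, adjusted p = 0.242), and Hoxd8 had 0.997, 3.47, 3.24, 6.4 and 6.19 (-0.51 ± 0.28, adjusted p = 0.121). The low value in both was library 1. Without it the differences were 0.06 ± 0.31 and -0.09 ± 0.23, and 22 members were still called lower. Library 1 also had the highest summed chondrocyte markers at 4 h, 950 scaled RPKM against 147 to 205 in the other 4, and the lowest summed muscle markers, 4315 against 9826 to 29643.

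Other markers moved at the same time. Of 7 mesenchymal and periosteal progenitor markers 5 fell at 4 h (median difference -1.12) and of 7 osteoblast markers 6 fell (-0.92). Summed progenitor markers were 151 to 290 in fractured and 232 to 403 in intact femurs. Neutrophil markers rose in 6 of 7 (1.33) and erythroid markers in 5 of 5 (1.25), with summed neutrophil markers of 4968 to 16100 in fractured and 2186 to 4582 in intact femurs. Their part in the lower Hox levels was not tested.

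At 1 d after full fracture, 1 member was higher and 15 were lower (50.9% of all genes called, 25.5% higher and 25.4% lower), with a median of -0.47. Hoxa6 had 1.43, 0.954, 0.801, 1.51 and 1.01, against 1.47, 2.51 and 2.94 in intact femurs (lowest, median, highest), a difference of -1.04 ± 0.20 (adjusted p = 5.22e-05). Hoxc10 had 6.06, 5.68, 5.8, 5.39 and 6.27 (-0.81 ± 0.15, adjusted p = 5.17e-05) and Hoxa5 had 2.2, 1.11, 1.25, 1.62 and 1.05, against 1.86, 2.26 and 3.42 in intact femurs (-0.70 ± 0.16, adjusted p = 0.0005). In all 3 genes at least 1 injured femur reached the intact range.

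Tbx4 was still lower at 1 d, with 1.12, 0.788, 0.655, 0.947 and 0.96 (-0.65 ± 0.15, adjusted p = 0.000541). Pitx1 stood at 3.44, 3.28, 2.42, 2.92 and 3.02, within the intact range (-0.09 ± 0.12, adjusted p = 0.571). The 1 member called higher, Hoxb9, lost its call without library 1, 4 or 5. Calls of Hoxa2 (library 1 or 3), Hoxb6 (library 2) and Hoxc8 (library 2, 4 or 5) ended likewise. Library 4 had the highest summed chondrocyte markers at 1 d, 409 against 84 to 126 in the other 4. Summed progenitor markers were 142 to 231 at 1 d, against 232 to 403 in intact femurs (4 of 7 fell), osteoclast markers 80.5 to 222, against 239 to 866 (4 of 4 fell), and macrophage markers 150 to 226, against 67.4 to 137 (2 of 4 rose). Their part in the member changes at 1 d was not tested.

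At 3 d, 6 members were higher and 7 lower (56.4% of all genes called, 28.1% higher and 28.3% lower). Pitx1 had 4.53, 5.13, 4.74, 6.21 and 4.51 (0.63 ± 0.12, adjusted p = 2.82e-05), of which libraries 1 and 5 lay within the intact range. Hoxb7 had 0.987, 1.21, 1.3, 1.37 and 1.08, against 0.436, 0.734 and 1.03 in intact femurs (0.69 ± 0.19, adjusted p = 0.00227). Tbx4 was higher at this time, with 1.93, 2.17, 2.07, 2.11 and 1.58 (0.42 ± 0.15, adjusted p = 0.0184), a call that ended without library 2.

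Hoxc8 (4.32, 2.97, 4.17, 3.28 and 3.42) was higher by 0.42 ± 0.16 (adjusted p = 0.0299), which ended without library 1 or 3, and Hoxc6 by 0.32 ± 0.13, which ended without any 1 of libraries 1 to 4. Among falls at 3 d, Hoxd9 had 0.595, 0.511, 0.553, 0.904 and 0.78, against 0.831, 1.54 and 2.65 in intact femurs (-1.11 ± 0.38, adjusted p = 0.0137). Hoxa6 fell by 0.53 on the log2 scale, a call that ended without library 2 or 4, and Hoxa7 by 0.48. Hoxc10 was lower by -0.39 ± 0.15, a call that ended without library 2 or 5.

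At 7 d, 8 members were higher and 8 lower (65.8% of all genes called, 31.9% higher and 33.9% lower). With RPKM as deposited, which moved the median of all genes to -0.28, the counts were 4 and 10: Hoxa9, Hoxb2, Hoxc6 and Hoxc8 were no longer called, and Hoxb4 and Tbx4 were called lower. Chondrocyte markers rose in 10 of 10 at this time (median 7.02) and erythroid markers fell in 5 of 5 (-4.97). Their part in the member changes was not tested.

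Pitx1 reached its highest level at 7 d, with 6.06, 4.88, 5.58, 7.56 and 5.45, all above the highest intact femur at 4.55 (0.85 ± 0.12, adjusted p = 1.5e-07). Hoxb7 had 1.67, 1.68, 1.64, 1.24 and 1.33, all above the intact maximum of 1.03 (1.01 ± 0.19, adjusted p = 2.09e-05). Hoxb9 rose by 0.73 ± 0.21.

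Hoxd9 stayed low at 7 d, with 0.294, 0.871, 0.847, 0.321 and 0.649 (-1.33 ± 0.38, adjusted p = 0.0029), and Hoxa6 (-0.73 ± 0.20), Hoxa3 (-0.67 ± 0.16) and Hoxa5 (-0.63 ± 0.16) were lower. Tbx4 had 0.851, 1.34, 1.34, 0.853 and 1.42 and did not pass the test (-0.32 ± 0.15, adjusted p = 0.0613). Calls that ended without 1 library were those of Hoxa4 and Hoxb2 (library 5), Hoxa7 (library 1, 2 or 5), Hoxc4 (library 1, 2, 3 or 5) and Hoxc5 (library 1 or 2).

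At 14 d, 5 members were higher and 6 lower (55.6% of all genes called, 28.3% higher and 27.3% lower). Tbx4 had 0.735, 0.492, 0.51, 0.583 and 0.485, all below the lowest intact femur (-1.23 ± 0.15, adjusted p = 2.67e-08). Hoxd9 had 0.865, 0.757, 0.625, 0.191 and 0.624 (-1.30 ± 0.38, adjusted p = 0.0044) and Hoxc10 had 6.69, 6.13, 6.61, 6.87 and 5.75 (-0.68 ± 0.15, adjusted p = 0.000354). Pitx1 was back in the intact range with 3.42, 3.59, 4.4, 3.53 and 3.66 (0.21 ± 0.12, adjusted p = 0.131).

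Among the rises at 14 d were 4 HoxB genes. Hoxb2 rose by 0.83 ± 0.18, Hoxb9 by 0.69 ± 0.21, Hoxb7 by 0.67 ± 0.19 and Hoxb3 by 0.63 ± 0.18. Summed osteoclast markers were 4525 to 5622 at 14 d, against 239 to 866 in intact femurs, osteoblast markers 13800 to 17306, against 2951 to 10116, and macrophage markers 369 to 433, against 67.4 to 137. Neutrophil markers fell in 7 of 7 and muscle markers in 7 of 7. Their part in the member changes at 14 d was not tested. The falls of Hoxa5 and Hoxc5 ended without library 4 or 5 and that of Hoxa6 without library 1.

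**Figure D4:**
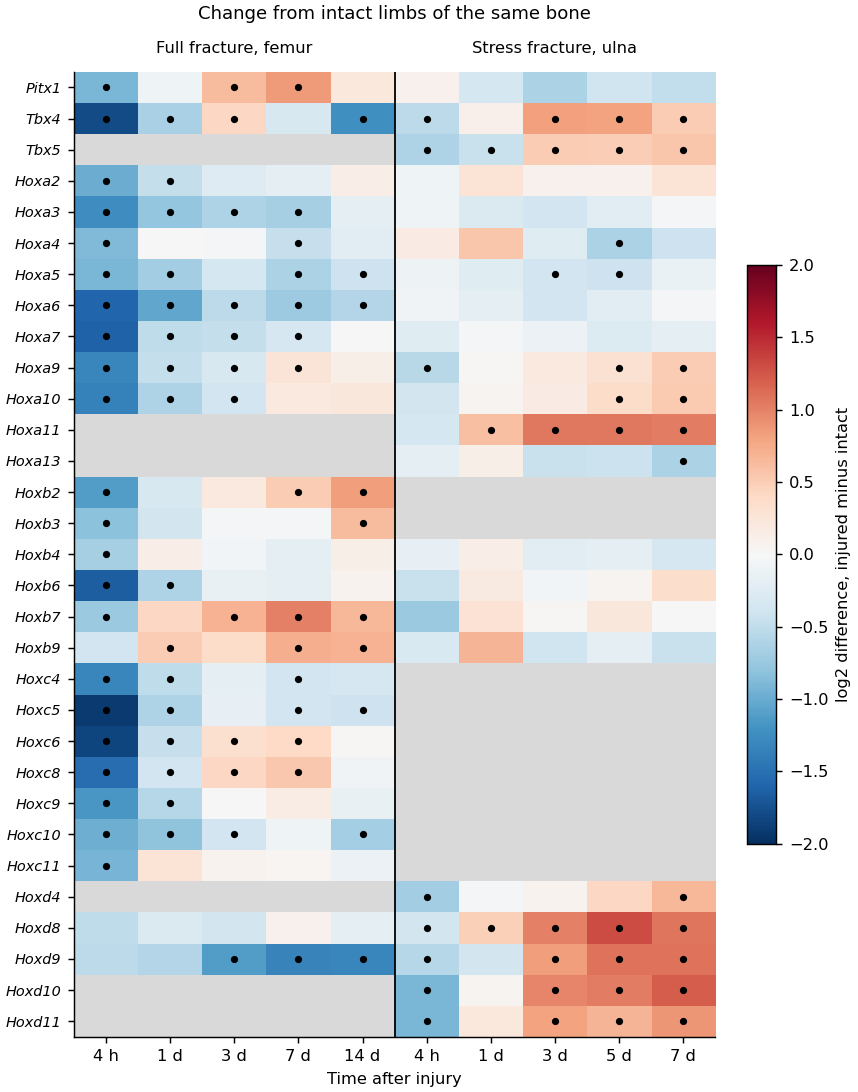
Log2 difference of injured minus intact limbs as colour for members tested, at each time after full fracture of the femur (left columns) and stress fracture of the ulna (right columns), with dots on calls and grey for members not tested. At 4 h, 22 femur cells carry a dot and lie below 0, and the ulna cells of Hoxd8 to Hoxd11 lie above 0 from 3 d to 7 d.

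Summed by cluster in femurs, HoxC averaged 31.9 in intact limbs and 13.1, 21.9, 30.9, 33.1 and 25.5 scaled RPKM at 4 h, 1 d, 3 d, 7 d and 14 d. HoxA averaged 18.8 in intact limbs and 7.45, 12.5, 14.8, 17.4 and 18.5, and HoxB 5.83 in intact limbs and 2.77, 5.83, 6.22, 6.6 and 7.53. HoxD averaged 7.43 in intact limbs and 5.68, 5.48, 4.94, 6.8 and 5.45. HoxA, HoxB and HoxC sums were thus lowest at 4 h and HoxD sums at 3 d.

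Each time after stress fracture was set against the same 9 intact ulnas. HoxC could not be tested here, as 0 of 9 HoxC genes passed the filter in ulnas. At 4 h, 0 of 22 tested members were higher and 8 lower, where 10.8% of all genes were called (5.57% higher and 5.21% lower), with a median of -0.35 over these members. The lower ones were 5 of 5 tested HoxD genes, Hoxa9, Tbx4 and Tbx5.

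Hoxa9 had 1.28, 1.5, 1.33, 1.5 and 1.92 at 4 h, against 1.95, 2.24 and 2.69 in intact ulnas (lowest, median, highest), with no overlap (-0.55 ± 0.09, adjusted p = 6.98e-05). Tbx5 had 0.52, 0.802, 0.795, 0.729 and 0.795, below the lowest intact ulna at 0.989 (-0.61 ± 0.14, adjusted p = 0.00333). Hoxd11 had 0.178, 0.156, 0.434, 0.361 and 0.0294 (-0.91 ± 0.23, adjusted p = 0.00764) and Hoxd10 had 0.583, 0.399, 0.535, 0.536 and 0.0682 (-0.92 ± 0.28, adjusted p = 0.0344). Library 5 was lowest for both.

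Of the 8 calls at 4 h, 4 ended without 1 library, and with only these 2 groups in the fit 2 members were called. The call of Hoxd10 ended without library 2 or 5 (-0.54 without 5), those of Hoxd8 (-0.36 ± 0.11) and Hoxd9 (-0.57 ± 0.18) without library 1, 2 or 5, and that of Tbx4 (0.348, 0.464, 0.605, 0.555 and 0.364, -0.53 ± 0.15) without library 1 or 5. Pitx1 had 0.61, 0.619, 0.301, 0.55 and 1.07 (0.08 ± 0.31, adjusted p = 0.924). Of 7 progenitor markers 2 fell at this time, with summed levels of 144 to 187 in stressed and 142 to 181 in intact ulnas.

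At 1 d, 2 members were higher and 1 lower (13% of all genes called, 9.05% higher and 3.96% lower). Hoxd8 had 6.43, 8.32, 6.45 and 6.87, against 3.76, 5.18 and 5.72 in intact ulnas (0.48 ± 0.12, adjusted p = 0.00878), with no overlap, and the call ended without library 2. Hoxa11 had 1.82, 2.66, 2.28 and 2.03 (0.60 ± 0.18, adjusted p = 0.0291), with library 1 inside the intact range, which ended without library 2 or 4. Tbx5 had 0.585, 1.31, 0.88 and 0.64 (-0.45 ± 0.15, adjusted p = 0.0413), which ended without library 1, 4 or 5. Tbx4 had 0.603, 1.1, 0.531 and 0.946 and Pitx1 had 0.585, 0.675, 0.17 and 0.387, and neither was called.

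At 3 d, 7 members were higher and 1 lower in stressed ulnas (38.6% of all genes called, 19.7% higher and 18.9% lower). The higher ones included 4 of 5 tested HoxD genes, and Hoxd4 was not called (0.07 ± 0.18, adjusted p = 0.811). Hoxd8 had 9.35, 11, 11.5, 8.5 and 10.4, all above the highest intact ulna at 5.72 (1.00 ± 0.11, adjusted p = 4.36e-08). Hoxa11 had 2.8, 2.62, 3.4, 3.5 and 2.88, all above the highest intact ulna at 1.83 (1.05 ± 0.17, adjusted p = 1.33e-05). Hoxd10 had 1.78, 1.56, 1.7, 1.94 and 1.31 (0.97 ± 0.28, adjusted p = 0.00728), against 0.364, 0.945 and 1.31 in intact ulnas.

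Hoxd9 at 3 d had 4.28, 3.31, 3.06, 3.75 and 4.35, against 1.32, 2.02 and 3.29 in intact ulnas (0.83 ± 0.18), and Hoxd11 rose by 0.80 ± 0.23. Tbx4 had 1.3, 1.32, 1.26, 1.3 and 1.46, above the highest intact ulna at 0.877 (0.82 ± 0.15, adjusted p = 9.26e-05). Tbx5 had 1.61, 1.73, 1.53, 2.2 and 1.44, above the highest intact ulna at 1.38 (0.51 ± 0.14, adjusted p = 0.00368). The 1 fall, that of Hoxa5 (-0.38 ± 0.14), ended without library 2, 3 or 5.

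At 5 d, 9 members were higher and 2 lower (44.3% of all genes called, 21.6% higher and 22.7% lower). Again 4 of 5 tested HoxD genes rose, and Hoxd4 was not called (0.41 ± 0.18, adjusted p = 0.0609). With RPKM as deposited, which moved the median of all genes to -0.18, the counts were 7 and 4, with Hoxa9 and Hoxa10 no longer called and Hoxa7 and Hoxa13 called lower. Hoxd8 reached 14.7, 14, 10.5, 11.1 and 12.5 (1.30 ± 0.11, adjusted p = 1.9e-10), its highest group mean. Hoxd9 had 4.93, 4.73, 4.31, 4.68 and 3.72 (1.08 ± 0.18, adjusted p = 1.82e-05), with no overlap. Hoxa11 had 3.64, 3.15, 3.03, 2.02 and 3.6 (1.05 ± 0.17).

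Hoxd10 at 5 d had 1.3, 1.99, 1.89, 2.3 and 1.26 (1.02 ± 0.28) and overlapped the intact ulnas. Tbx4 had 1.29, 1.57, 1.01, 1.36 and 1.34 (0.80 ± 0.15) and Tbx5 had 2.01, 1.82, 1.39, 1.64 and 1.47 (0.49 ± 0.14). Both T-box genes lay above every intact ulna. Hoxa4 (-0.64 ± 0.20, adjusted p = 0.00977) and Hoxa5 (-0.41 ± 0.14) were lower. The call of Hoxa5 ended without library 2 and that of Hoxa10 (0.36 ± 0.14) without library 1, 2 or 5.

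At 7 d, 10 members were higher and 1 lower (35.3% of all genes called, 18.3% higher and 17% lower), and 5 of 5 tested HoxD genes rose. Hoxd10 had 2.14, 1.91, 1.64 and 2.16 (1.21 ± 0.31, adjusted p = 0.00265), Hoxd9 had 4.9, 5.03, 3.43 and 4.68 (1.08 ± 0.20, adjusted p = 8.3e-05) and Hoxd8 had 11.9, 12.9, 8.57 and 9.57 (1.07 ± 0.12, adjusted p = 9.02e-08). All 4 ulnas were above every intact ulna in these 3 genes. Hoxa11 had 3.1, 3.73, 2.05 and 3.19 (1.02 ± 0.18), Hoxd11 rose by 0.89 ± 0.24 and Hoxd4 by 0.66 ± 0.19.

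Tbx5 at 7 d had 1.72, 1.85, 1.55 and 1.87 (0.56 ± 0.15, adjusted p = 0.00376), without overlap. Tbx4 had 1.21, 1.14, 0.836 and 0.996 (0.50 ± 0.17, adjusted p = 0.02), a call that ended without library 1 or 2. Hoxa13 was lower, with 2.07, 1.98, 1.58 and 1.05 (-0.63 ± 0.23, adjusted p = 0.0333), which ended without library 4 or 5. So Hoxa11 rose while its 5' neighbour Hoxa13 did not. Pitx1 was not called at 3 d (-0.63 ± 0.31, adjusted p = 0.114), 5 d (-0.40 ± 0.31, adjusted p = 0.321) or 7 d (-0.49 ± 0.34, adjusted p = 0.279).

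Summed HoxD levels in ulnas averaged 9.15 in intact limbs and 6.34, 10.7, 17.5, 20.9 and 19.5 scaled RPKM at 4 h, 1 d, 3 d, 5 d and 7 d. HoxA sums averaged 20 in intact limbs and 16.7, 21.1, 20.6, 21.6 and 23.5 at the same times, and HoxB sums stayed between 3.18 and 4.46. Osteoblast markers rose in 6 of 7 at 3 d and 7 of 7 at 5 d and 7 d (median differences 1.53, 2.18 and 2.05), and chondrocyte markers in 6, 10 and 10 of 10. Progenitor markers rose in 4, 5 and 5 of 7 and fell in 2 at each time, with summed levels of 272 to 326 at 3 d and 142 to 181 in intact ulnas. Erythroid markers fell in 5 of 5 at each time. Their part in the rise of HoxD genes was not tested.

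**Figure D5:**
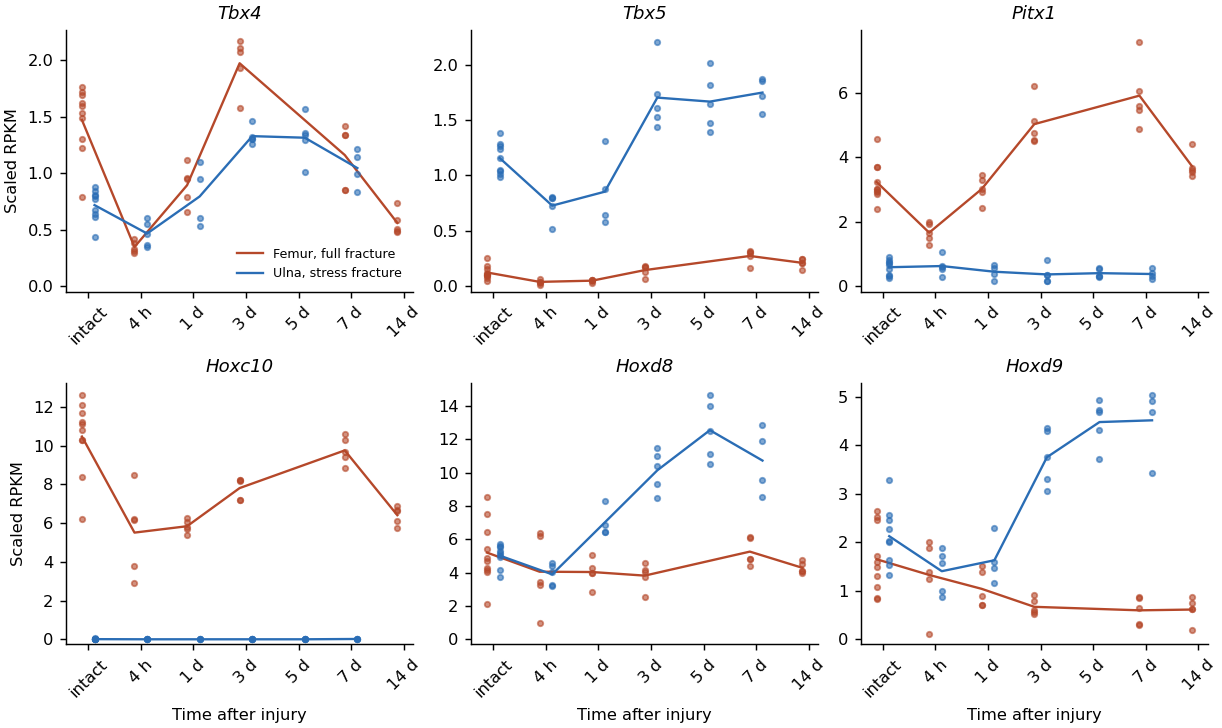
Levels of Tbx4, Tbx5, Pitx1, Hoxc10, Hoxd8 and Hoxd9 in scaled RPKM in intact limbs and over the time after injury, for femurs with full fracture and ulnas with stress fracture, with each point 1 library and lines joining group means. Hoxd8 and Hoxd9 have higher means in ulnas than in femurs at 3 d and 7 d, and Tbx4 and Pitx1 have their lowest femur means at 4 h.

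The difference between the injuries was tested as the full fracture response of the femur minus the stress fracture response of the ulna at each shared time. Only the 16 members that passed the filter in each bone are read here: for the other 16 in the joint fit, such as the HoxC genes in ulnas and Hoxd10 and Hoxd11 in femurs, 1 bone lay below the filter and its response could not be tested, so the difference largely repeats that of the other bone. At 4 h, 0 of the 16 were higher and 12 lower, where 38.3% of the 19094 genes tested in each bone were called (19.1% higher and 19.2% lower). The median was -0.94 over the 16 members and -0.06 over these genes. At 1 d, 0 were higher and 5 lower (28.9% of these genes, 14.8% higher and 14% lower). At 3 d the counts were 1 and 4 (27.9%, 13.6% higher and 14.3% lower) and at 7 d 3 and 4 (49.6%, 25.1% higher and 24.5% lower). Over the 21092 genes of the joint fit the shares called were 36% at 4 h (17.8% higher and 18.2% lower), 27.2% at 1 d (13.8% and 13.4%), 26.3% at 3 d (12.7% and 13.6%) and 47% at 7 d (23.5% in each direction). With RPKM as deposited the counts over the 16 were 0 and 3 at 1 d, 2 and 4 at 3 d and 2 and 8 at 7 d. With a pseudocount of 1 the members called at 1 d, 3 d and 7 d numbered 12, 12 and 19 of all 32, against 7, 7 and 12 at 0.1, and 7, 5 and 8 of the 16. Calls that ended on leaving out 1 library were those of Hoxb4 at 4 h (5 of 10 libraries), of Hoxa2 at 1 d (femur library 1 or ulna library 5) and of Hoxa10 at 3 d (ulna library 4).

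Of these members, Hoxd9 had the largest differences at 3 d and 7 d. Its response was lower after full fracture by -1.94 ± 0.44 at 3 d (adjusted p = 0.000679) and by -2.41 ± 0.46 at 7 d (adjusted p = 1.57e-05), with group means of 0.668 and 1.65 in fractured and intact femurs and of 3.75 and 2.12 in stressed and intact ulnas at 3 d. For Hoxd8 the values were -1.38 ± 0.31 (adjusted p = 0.000695) and -0.98 ± 0.33 (adjusted p = 0.0108).

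Pitx1 differed in the other direction, at 1.26 ± 0.32 at 3 d (adjusted p = 0.00232) and 1.34 ± 0.34 at 7 d (adjusted p = 0.00076), after -0.99 ± 0.32 at 4 h (adjusted p = 0.0124). Tbx4 differed at 4 h (-1.26 ± 0.21, adjusted p = 3.73e-06), 1 d (-0.75 ± 0.22, adjusted p = 0.00843) and 7 d (-0.82 ± 0.22, adjusted p = 0.00179) and not by the test at 3 d (-0.40 ± 0.21, adjusted p = 0.164). Its 1 d call ended without ulna library 2.

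Of the HoxA and HoxB genes, Hoxa6 had -1.52 ± 0.30 at 4 h and -0.86 ± 0.32 at 1 d, and the second call ended without any 1 of 5 of the 9 injured libraries. Hoxa9 was lower at 4 h, 1 d and 3 d (-0.76 ± 0.11, -0.50 ± 0.12 and -0.52 ± 0.11). At 7 d Hoxb9 (1.19 ± 0.35) and Hoxb7 (1.01 ± 0.40) were higher. The call of Hoxb7 ended without ulna library 4 or 5.

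Members under the filter are given here as chosen after their values were seen. Hoxd1, at the 3' end of HoxD, had 0 reads in 10 intact femurs and 1 read in 9 intact ulnas. After stress fracture it averaged 0.239, 0.279 and 0.282 scaled RPKM at 3 d, 5 d and 7 d, from 40, 40 and 37 reads. At 3 d its 5 ulnas had 0.267, 0.105, 0.297, 0.201 and 0.328, and 8 of 9 intact ulnas had none. In the fit without a filter the difference at 3 d was 1.66 ± 0.25 (adjusted p = 9e-06). In femurs at 7 d it had 15 reads in 5 libraries.

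Hoxd13, the digit-level gene at the 5' end of HoxD, averaged 0.393 in femurs at 7 d after full fracture (0.279, 0.613, 0.518, 0.215 and 0.34, 91 reads) and 0.182 at 14 d (39 reads), against 0.0455 in 10 intact femurs (19 reads). All 5 femurs at 7 d were above the highest intact femur at 0.127. Without a filter the difference at 7 d was 1.74 ± 0.25 (adjusted p = 7.41e-07). Hoxa11 in femurs, under the filter there, averaged 0.316 at 3 d after full fracture, against 0.0843 in intact femurs (1.16 ± 0.25 without a filter). Hoxb5 had 8 reads in femurs at 4 h, against 195 reads in intact femurs (-1.84 ± 0.22 without a filter). Tbx5 in femurs averaged 0.126 in intact limbs and 0.0408, 0.0517, 0.147, 0.274 and 0.212 over the 5 times, and at 7 d stood at 0.323, 0.314, 0.301, 0.163 and 0.271.

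Other genes of the same pathways were counted by lists, and members are not part of them. Of 9 cofactors of the TALE class, homeodomain proteins that bind DNA with Hox proteins, 3 were higher and 3 lower in intact femurs than in intact ulnas (39.7% of all genes called). Meis2 (2.22 ± 0.09) and Meis1 (0.85 ± 0.07) were higher and Pbx4 lower (-0.52). Meis genes mark the proximal limb. At 4 h after full fracture 1 TALE gene rose and 5 fell of 9 (56.4% of all genes called), among them Meis2 (-1.18 ± 0.11). At 5 d after stress fracture 2 rose and 3 fell of 8 (44.3% of all genes called), with Meis3 at 1.19 ± 0.10.

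Of 39 limb bud patterning and growth genes, 27 were tested between intact bones, with 12 higher and 8 lower in femurs (39.7% of all genes called). Shox2, a factor of the upper limb segment, was higher (1.23 ± 0.11) and Hand2, a factor of the posterior limb bud, lower (-2.30 ± 0.25). After full fracture 2 rose and 19 fell of 25 at 4 h (median -1.24, with 56.4% of all genes called), and 12 rose and 7 fell at 7 d (median 0.24, with 65.8% of all genes called). After stress fracture 19 rose and 2 fell of 24 at 5 d (median 0.75, with 44.3% of all genes called), with Prrx2, a limb mesenchyme factor, at 2.03 ± 0.18 and Twist1, another, at 1.44 ± 0.15.

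Of 19 Polycomb and trithorax genes, which keep Hox genes off or on through cell divisions, 4 were higher and 8 lower in intact femurs (39.7% of all genes called), with Eed at -0.62 ± 0.05. At 4 h after full fracture 8 rose and 7 fell (56.4% of all genes called), with the H3K27 demethylase gene Kdm6b at 1.92 ± 0.14 and Cbx8, a Polycomb subunit, at -1.44 ± 0.12. At 7 d Cbx7, another, fell by 2.71 on the log2 scale. At 5 d after stress fracture 3 rose and 10 fell (44.3% of all genes called).

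Of 12 antisense, intergenic and even-skipped transcripts of the clusters, 6 were tested between intact bones, with 3 higher and 1 lower in femurs (39.7% of all genes called). Hoxa11os was lower in intact femurs (-2.34 ± 0.15), as was Hoxa11, and Hotairm1 higher (1.10 ± 0.21). At 4 h after full fracture 0 rose and 5 of 5 fell (56.4% of all genes called), and at 3 d, 5 d and 7 d after stress fracture Hoxd3os1, which lies opposite Hoxd3 and Hoxd4, rose by 0.94 ± 0.16, 1.05 ± 0.16 and 1.29 ± 0.17. Its reads and those of its neighbours could not be separated by strand.

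In the authors' deposited table for full fracture, members called here had the same call in 21 of 21 listed cases at 4 h, 16 of 16 at 1 d, 11 of 12 at 3 d, 15 of 15 at 7 d and 10 of 10 at 14 d. Both sets of calls rest on the same libraries. In the authors' deposited table for stress fracture the shares were 7 of 8, 2 of 3, 8 of 8, 11 of 11 and 11 of 11 at 4 h, 1 d, 3 d, 5 d and 7 d. These shares leave out members that only the authors called. Examples after full fracture were Hoxd9 at 1 d, Hoxa5 at 3 d and Tbx4 at 7 d, and after stress fracture Hoxb4 at 7 d, each called lower by the authors.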

How the data were processed

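RNA-seq of bone gave 67 library columns in 10 tables, 5 per bone. The deposited values are the authors' RPKM per gene. The submitters' processing notes name STAR 2.4.2a, Subread, featureCounts 1.4.6, DESeq2 and the build mm10, without their roles. The deposited tables also hold the authors' log2 fold changes and adjusted p-values, used only where the report names the authors' deposited table. Per the labels' protocols, RNA with a RIN over 6.5 was depleted of ribosomal RNA and read as single ends on an Illumina HiSeq.

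The RPKM were scaled by median of ratios over 17516 genes above 0 in all 67 libraries. Tests used limma 3.58.1 in R 4.3.3 (trend and robust) on log2 of scaled RPKM plus 0.1, for genes with 0.5 scaled RPKM in at least 5 libraries, at an adjusted p of 0.05 by Benjamini and Hochberg. The femur fit held 20212 genes, the ulna fit 20219 and the fit of both bones 21092, for 19 comparisons. Groups were the labelled bone, injury and time; ulna times come from the tables' own names. Replicates are separate limbs, and columns carry no animal numbers.

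Library depth was recovered from the steps of RPKM with GENCODE M21 exon lengths. Read values of the members were whole within 0.02 of a read for 2814 of 2814. Read ratios pool the libraries of a group, with exact conditional 95% intervals that cover counting error only, as do the floors of 3 reads. A count test on these reads was not run.

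In each bone 25 gene names were left out because they read as dates or occurred more than once. Names were 47517 in femur and 46882 in ulna tables, and 45634 were shared. Of 70 labelled samples, 3 are not analysed here. Single values of 1 member are not reported here, although counts and sums include it. The difference between the injuries is read over the 16 members tested in each bone, a restriction made after the data were seen. Scripts were tested on simulated data. Members, lists and tests were chosen with earlier results of these data known. Named genes are the 3 limb factors, members called between intact bones with the 6 largest differences each way, and the 3 largest rises and falls after injury. Alternatives were another pseudocount (1), no filter, RPKM as deposited, upper-quartile scaling, fits of only the groups compared, and leaving out each library.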

Additional observations from a re-analysis of the deposited data

Results flagged for a closer look

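The level of 1 library stood far from the others of its group in 9 of 154 gene groups checked, and chance flags about 1 in 20. In intact femurs, library 2 had the highest Hoxa5 (3.42, others 1.86 to 2.5) and the lowest Tbx4 (0.792, others 1.22 to 1.76), and library 6 the lowest Hoxa7 (1.76, others 2.81 to 3.43). After full fracture, library 1 at 4 h had the lowest Hoxd9 (0.116, others 1.24 to 2.01), library 5 at 3 d the lowest Hoxc6 (5.41, others 7.2 to 7.49), library 1 at 14 d the highest Hoxc11 (2.55, others 1.92 to 2.05) and library 3 at 14 d the highest Pitx1 (4.4, others 3.42 to 3.66). After stress fracture, library 4 at 3 d had the highest Hoxa9 (2.96, others 2.44 to 2.57) and library 1 at 7 d the lowest Hoxa5 (1.49, others 1.81 to 1.83). All values are scaled RPKM.

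The full fracture response of the femur differed from the stress fracture response of the ulna, by limma's test of that difference, for named members at 4 shared times. Only members that passed the filter in each bone are given. At 4 h the difference was -1.52 for Hoxa6 on the log2 scale. At 1 d it was -0.86 for Hoxa6, a call that ended without any 1 of 5 libraries, and -0.75 for Tbx4, which ended without ulna library 2. At 3 d it was 1.26 for Pitx1, -1.94 for Hoxd9 and -1.38 for Hoxd8. At 7 d it was 1.34 for Pitx1, 1.01 for Hoxb7, which ended without ulna library 4 or 5, -2.41 for Hoxd9 and -0.98 for Hoxd8. The bones, the injuries and the tables differ together here and cannot be told apart.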

How the results depend on the processing

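Of 131 results on single genes, 111 kept their call under every alternative run that tested them. These are results of the named genes, the limb factors and the members with the largest differences. Where a gene did not pass the filter of an alternative, it had no value there, which was not counted as a lost call. Weaker calls of other members, some of which ended without 1 library, are outside this tally. Of 1762 alternative values, 1698 kept direction and call, 64 kept the direction and lost the call, and 0 changed direction. The count of members called after stress fracture at 4 h (8) was 4 at a pseudocount of 1, 5 without a filter, 2 with only the compared groups in the fit, and 4 to 9 on leaving out 1 library. At 1 d after stress fracture (3) leaving out 1 library gave 1 to 3. Between injured bones, fitting only the compared groups gave 14 at 4 h (22), 10 at 1 d (19) and 13 at 7 d (22). For the difference between the injuries over all 32 members of the joint fit, a pseudocount of 1 gave 12 at 1 d (7), 12 at 3 d (7) and 19 at 7 d (12). The causes of the other changes were not tested. RPKM as deposited put the median of all genes more than 0.1 from 0 in 10 of 19 comparisons and turned no call round.

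No paired analysis was possible because the columns carry no animal numbers. Intact libraries were left out in turn only in the comparison of intact bones. Members with few reads, such as Hoxd1 and Hoxd13, are limited by depth.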
